A study of Mus musculus with 16 samples.

Results

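Mouse *A2m* was followed through every library together with its neighbours *Apobec1* and *Rimklb* on chromosome 6 and with *Lrp1*, which encodes the receptor of the A2m protein. These 4 genes are among the 50600 genes in the deposited counts and were chosen by symbol. On GRCm38.p6, RefSeq places *A2m* (ENSMUSG00000030111.9) at chr6:121636165-121679238, *Rimklb* (ENSMUSG00000040649.15) at chr6:122447296-122487062 and *Apobec1* (ENSMUSG00000040613.14) at chr6:122577792-122603024. *Rimklb* therefore lies between *A2m* and *Apobec1*, 768058 bp from *A2m*, and *Apobec1* lies 898554 bp from *A2m*. *Lrp1* (ENSMUSG00000040249.15) is on another chromosome, at chr10:127538157-127621148.

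The cells are F1 hybrids of 129Sv and Cast/EiJ mice, so that reads over strain polymorphisms can be given to the 129 or the Cast allele. Embryonic stem cells were turned into neural progenitor cells (NPCs) in N2B27 medium with EGF and FGF2, and each NPC line was grown from a picked colony, so each clone stands for 1 founder cell. RNA was sequenced from astrocytes derived with BMP4 from 5 clones (female 129, C2 and G4; male mC3 and mE6) and from NPCs of 7 clones (female F5; male mG2, mG6, Ch3, Ch5, Ch7 and Ch8). The 8 libraries of the astrocytes and of F5, mG2 and mG6 were made from poly(A)-enriched RNA, with 1 library per clone, and the Ch clones had 2 libraries each after ribosomal RNA depletion. Nothing in the labels says that the 2 libraries of a Ch clone came from separate cultures, so tests between these clones measure only the spread between libraries, which may be technical. All female clones stem from a female ES cell line and all male clones from a male one, so sex and line of origin cannot be told apart. The names of the poly(A) NPC libraries begin with another prefix than those of all astrocyte libraries. Differences between astrocytes and poly(A) NPCs therefore cannot be told apart from this prefix, and the clones differ too.

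A2m (alpha-2-macroglobulin) is a secreted thioester protein that traps proteases, and the trapped complexes are cleared by LRP1, a large endocytic receptor of the LDL receptor family that is abundant in astrocytes. Apobec1 is a cytidine deaminase that edits RNA, best known for the apolipoprotein B transcript, and Rimklb is a ligase that makes N-acetylaspartylglutamate (NAAG) and beta-citrylglutamate. Random monoallelic expression means that a clone uses mainly the maternal or mainly the paternal copy of an autosomal gene, with the choice differing between clones.

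The poly(A) libraries held 69925081 to 105892734 reads on genes and the ribosomal RNA-depleted ones 20871111 to 30920672, of which 21555315 to 32518327 and 4193927 to 5971768 could be given to an allele. The level of a gene is given as CPM, reads per 1000000 reads on genes. The allelic ratio is the percentage of Cast among allele-specific reads, given for at least 20 such reads, with 95% Wilson intervals that cover counting error only. Monoallelic stands for a ratio under 15% or over 85%, biallelic for 35 to 65%, and biased for what lies between. In the male clones, 0.0758 to 0.241% of the allele-specific reads on the X chromosome, which carries no Cast copy in these cells, were given to Cast. The median ratio over the genes of chromosome 6 lay between 48.9 and 49.96% in every clone, and over those of chromosome 10 between 48.3 and 49.6%. Summed proliferation markers (Mki67, Top2a, Ccnb1) were at 4.37 to 14.2 CPM in the astrocyte libraries against 729 to 1204 in the NPC libraries. The glial marker Gfap was at 61.9 to 2092 CPM in astrocytes and at most 3.45 in NPC clones. Of the other astrocyte markers tested against poly(A) NPCs, Aqp4 and Slc1a2 rose, while Aldh1l1 fell (log2 difference -1.55, adjusted p = 0.0367, edgeR). S100b, Slc1a3 and Aldoc did not pass (adjusted p = 0.128, 0.637 and 0.0764, edgeR). Summed, the 7 astrocyte markers were at 1330 to 4654 CPM in the astrocytes, which overlapped the 943 to 1688 of the poly(A) NPCs. Summed feeder fibroblast markers (Col1a1, Col1a2, Dcn, Lum, Thy1) ranged over 10.8 to 206 CPM in the astrocytes, 5.41 to 21.8 in the poly(A) NPCs and 0.719 to 1.60 in the Ch libraries. Of these, Col1a1 had by far the highest astrocyte mean, 55.3 ± 81.9 CPM (SD) against 0.617 in poly(A) NPCs (adjusted p = 0.0186, edgeR). Col1a2 reached at most 0.0734 CPM in any library. Thy1 was lower in astrocytes (mean 2.55 against 13.0 CPM). Dcn, Lum and Thy1 did not pass (adjusted p = 0.974, 0.6 and 0.092, edgeR). The sum therefore mainly follows Col1a1 in the astrocytes. Summed hepatocyte-like markers (Alb, Afp, Ttr, Apoa1) reached at most 1.19 CPM and microglial markers (Ptprc, Aif1, Cx3cr1, Csf1r) at most 1.93 in any library.

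The promoters of *Apobec1* and *Rimklb* are shown because the genes are close neighbours with very different allelic behaviour. They are the RefSeq sequences on GRCm38.p6 from 250 bases before to 50 bases after the transcription start, both on the minus strand, at chr6:122602395-122602694 for *Apobec1* and chr6:122486256-122486555 for *Rimklb*. The starts used by the promoter table lie inside the gene bounds given above, downstream of the outermost start of each gene. Capitals mark each CG dinucleotide, which reads the same on both strands.
Apobec1: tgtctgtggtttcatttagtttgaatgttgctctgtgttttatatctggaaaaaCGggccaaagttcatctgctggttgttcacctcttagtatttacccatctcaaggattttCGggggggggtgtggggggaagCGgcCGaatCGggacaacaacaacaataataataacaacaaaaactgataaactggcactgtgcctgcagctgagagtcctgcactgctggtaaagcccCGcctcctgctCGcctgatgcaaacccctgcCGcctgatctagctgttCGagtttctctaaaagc
Rimklb: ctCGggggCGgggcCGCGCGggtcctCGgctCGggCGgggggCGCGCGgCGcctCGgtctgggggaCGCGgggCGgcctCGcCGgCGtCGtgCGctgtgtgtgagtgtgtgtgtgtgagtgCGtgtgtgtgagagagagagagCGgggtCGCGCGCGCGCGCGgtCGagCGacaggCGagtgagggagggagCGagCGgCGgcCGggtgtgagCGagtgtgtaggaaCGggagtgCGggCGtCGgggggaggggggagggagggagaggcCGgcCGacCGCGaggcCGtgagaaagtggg
The *Apobec1* promoter holds 9 CG dinucleotides and 48.3% G and C, while that of *Rimklb* holds 47 and 76.3%. Of 32851 RefSeq promoters of this length, 45.8% hold at least as many CG dinucleotides as *Apobec1* and 1.44% as many as *Rimklb*, and 94.6% hold any. The promoter of *Lrp1* holds 16, a number reached by 33.0% of the promoters. These counts describe the sequence and are not a measurement of methylation or binding.

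*A2m* ranged from no read to 23.7 CPM, and no clone with enough reads expressed it from both alleles at similar levels. In the astrocytes, *A2m* was at 0.0454 CPM in clone 129 (4 reads), at 0 in C2, at 2.53 in G4, at 7.65 in mC3 and at 7.84 in mE6. The count of 0 in C2 allows a level of up to 0.0376 CPM (3 reads). In the poly(A) NPCs it was at 0.132 CPM in F5 (14 reads), 18.6 in mG2 and 23.7 in mG6. Clones 129, C2 and F5 were therefore close to silent. The 2 libraries of each Ch clone gave 11.7 and 10.8 CPM in Ch3, 21.0 and 19.0 in Ch5, 10.1 and 10.9 in Ch7, and 11.03 and 11.8 in Ch8. Ch5 stood above the other Ch clones without overlap, and Ch3 (mean 11.3 ± 0.671 CPM, SD, n = 2) and Ch8 (11.4 ± 0.557, n = 2) differed by less than the SD of either.

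**Figure D1:**
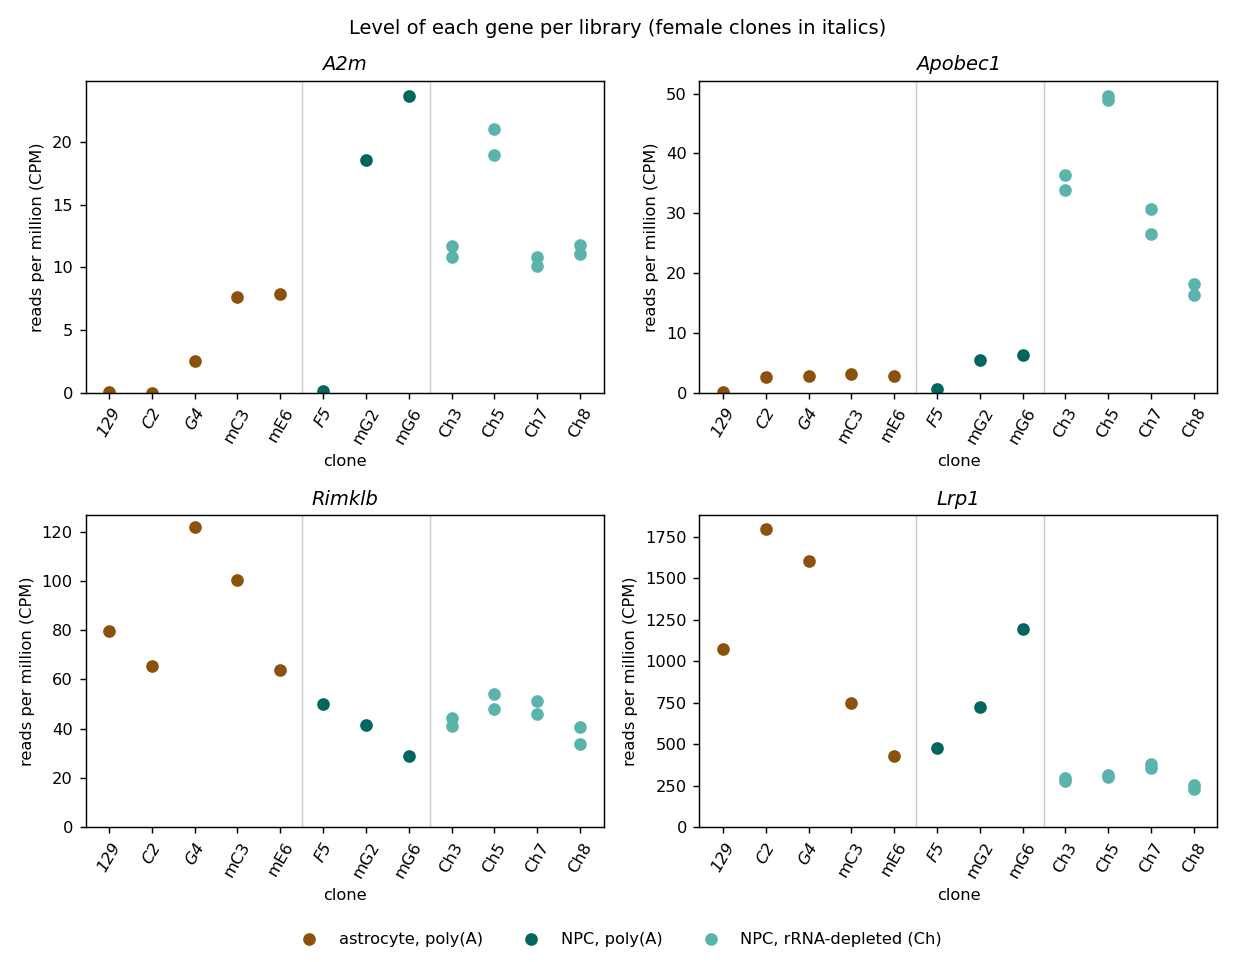
Level in CPM (linear axes from 0) of A2m, Apobec1, Rimklb and Lrp1, with 1 point per library, for the 12 clones (female clones in italics; brown, astrocytes; dark green, poly(A) NPCs; light green, ribosomal RNA-depleted NPCs with 2 libraries per clone). A2m lies at 0 to 0.132 CPM in clones 129, C2 and F5 and Apobec1 is highest in the 4 Ch clones, where Lrp1 is lowest. Ch clones and preparation cannot be told apart.

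The allele used for *A2m* differed between clones. In 3 clones there were too few allele-specific reads for a ratio. Of the other 9, G4 used the 129 allele, with 8.87% Cast (interval 5.03 to 15.2%, 124 reads). The Cast allele dominated in mC3 with 89.5% (86.2 to 92.1%, 420 reads), in mE6 with 85.7% (82.5 to 88.5%, 525 reads), in mG6 with 92.0% (90.4 to 93.4%, 1285 reads) and in Ch7 with 86.4% (82.5 to 89.5%, 374 reads). The intervals of G4, mE6 and Ch7 cross a limit of the monoallelic class. The other 4 clones were biased, 2 to each side. The ratio was 69.5% in mG2 (66.4 to 72.5%) and 74.4% in Ch8 (69.4 to 78.8%), and it was 26.1% in Ch3 (21.3 to 31.5%) and 28.5% in Ch5 (25.1 to 32.1%). In all, 5 clones were monoallelic, 4 for Cast and 1 for 129, 4 were biased and 0 biallelic. The SD of the ratio over these 9 clones was 32.1 percentage points, and 27 of 8770 autosomal genes with a ratio in the same clones (0.308%) had a larger one, where the median gene had an SD of 4.48.

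**Figure D2:**
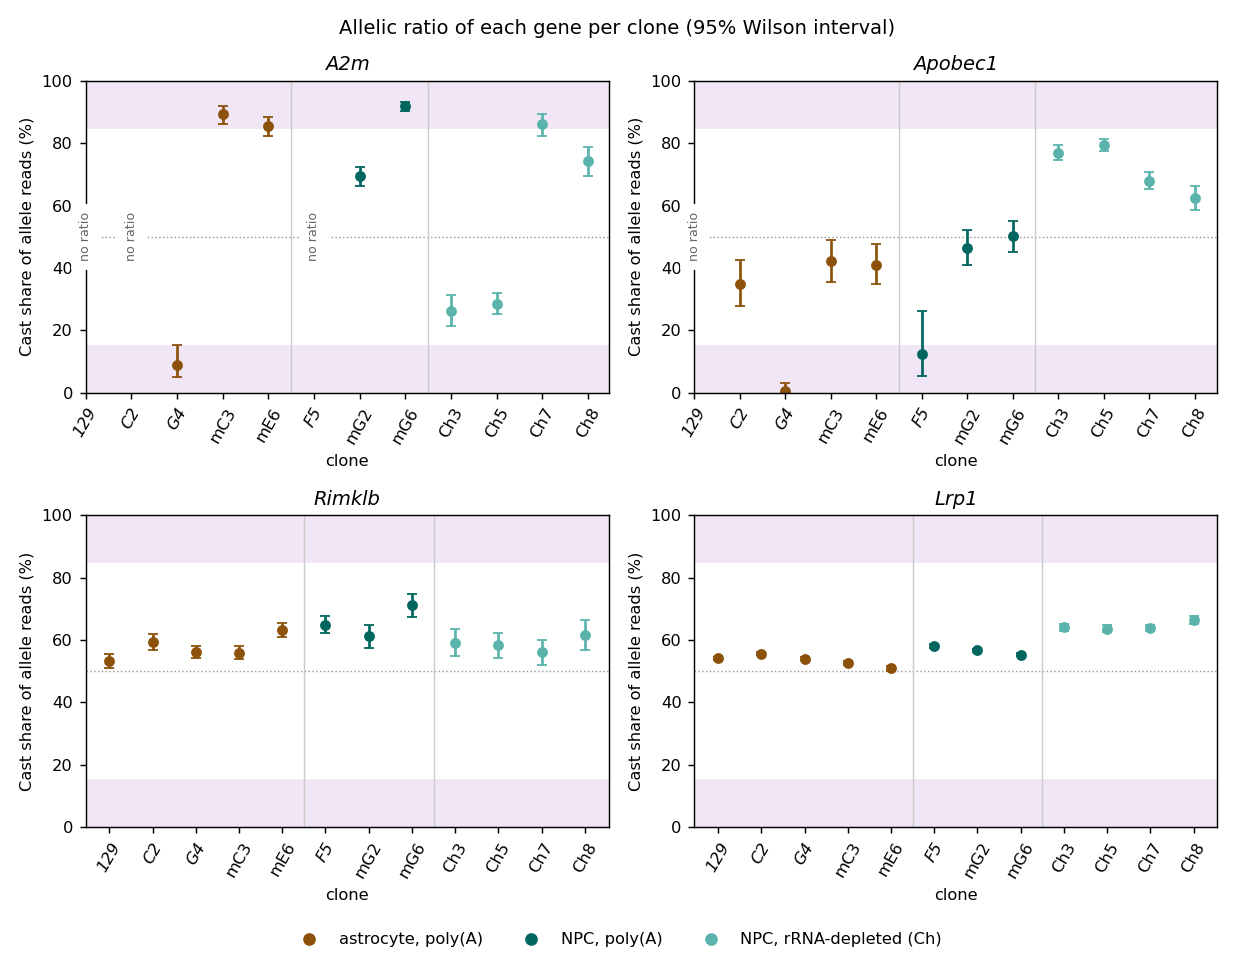
Percentage of Cast among allele-specific reads in each of the 12 clones for A2m, Apobec1, Rimklb and Lrp1. Points are clones (libraries of a Ch clone summed), bars are 95% Wilson intervals, shaded bands mark monoallelic ratios (under 15% or over 85%), and clones with under 20 allele-specific reads are marked as having no ratio. A2m and Apobec1 spread over 8.87 to 92.0% and 0.571 to 79.6%, Rimklb and Lrp1 over 53.4 to 71.3% and 50.9 to 66.5%.

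Between the Ch clones, where replicate libraries give an error, the *A2m* ratio differed beyond the spread between libraries. The 2 libraries gave 22.0 and 30.1% in Ch3, 29.4 and 27.2% in Ch5, 88.4 and 84.2% in Ch7, and 77.4 and 71.6% in Ch8. Ch3 and Ch5 were low and Ch7 and Ch8 high, with 60.3 percentage points between the lowest and the highest clone and a pooled SD of 3.88 points between libraries of a clone. The difference passed edgeR's quasi-likelihood test (adjusted p = 6.23e-58), as it did for 8.79% of the 11428 genes tested. The level of *A2m* also differed between these clones (adjusted p = 0.00173, edgeR; largest log2 difference 0.94), where 16.6% of 17095 genes passed.

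The level was split between the alleles in proportion to the allelic ratio, which takes the allele-specific reads to stand for all reads of the gene. In G4 the 129 allele was at 2.31 CPM and the Cast allele at 0.224. In mG6 these were 1.90 and 21.8 CPM, the highest level of either allele in any clone. Ch5 had 14.4 CPM from 129 and 5.72 from Cast, whereas Ch7 had 1.43 and 9.04. The weaker allele of *A2m* thus ranged from 0.224 CPM in G4 to 5.72 in Ch5 among the 9 clones with a ratio. As a point estimate it was above 0.132 CPM, the highest level of a near-silent clone, in all 9. The value of G4 rests on 11 Cast reads and the 0.132 CPM of F5 on 14 reads, so the order of these 2 is not certain.

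**Figure D3:**
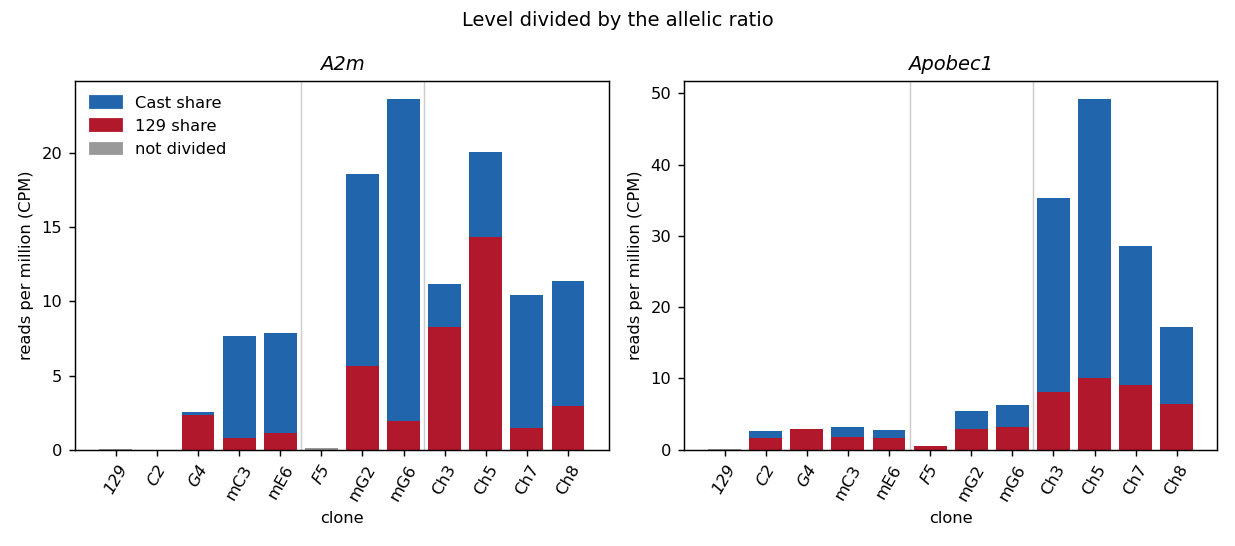
Level of A2m and Apobec1 in each of the 12 clones (CPM, stacked bars from 0). Bars are split in proportion to the allelic ratio into a 129 share (red) and a Cast share (blue). Grey bars are levels of clones with under 20 allele-specific reads. The A2m bar is mostly red in G4, Ch3 and Ch5 and mostly blue in mC3, mE6, mG2, mG6, Ch7 and Ch8.

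The near-silent clones of *A2m* were all female, a pattern noticed after the values were seen. In the poly(A) libraries the female clones were at 0 to 2.53 CPM and the male clones at 7.65 to 23.7, with no overlap, as for 1.70% of 17384 genes. In the astrocytes, female clones were at 0 to 2.53 CPM against 7.65 and 7.84 in male clones. In the NPCs these were 0.132 against 18.6 and 23.7 CPM. Among the astrocyte libraries whose names begin with A234, the female clone 129 was at 0.0454 CPM against 7.65 and 7.84. The order within these subsets follows from the absence of overlap and is no separate evidence. With cell type as a covariate, the log2 difference of *A2m* (female minus male) was -4.24 ± 1.84 (SE) and did not pass edgeR's test (adjusted p = 0.613), which called 0.0403% of the genes lower in female clones. Without clone G4, the female clone with the highest *A2m*, it was -7.80 with adjusted p = 0.0498 (edgeR). Leaving out G4 takes away the female clone that went most against the pattern. With any other single clone left out, the adjusted p was at least 0.435 (edgeR). None of the 4 genes passed this test (0 with edgeR, 0 with DESeq2, which gave *A2m* no p, and 0 at an unadjusted p under 0.05), and only *A2m* showed no overlap.

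*Apobec1* was detected in every clone but at very different levels, and its allelic ratio ran from almost only 129 to mostly Cast. The astrocyte levels were 0.0567 CPM in clone 129 (5 reads), 2.60 in C2, 2.87 in G4, 3.17 in mC3 and 2.74 in mE6. The poly(A) NPC levels were 0.576 CPM in F5, 5.41 in mG2 and 6.29 in mG6. Clone 129 was thus near-silent for *Apobec1* as well as *A2m*, whereas C2, with no *A2m* read, had *Apobec1* at the level of the other astrocytes. The 2 libraries of each Ch clone gave 33.9 and 36.3 CPM in Ch3, 49.6 and 48.9 in Ch5, 26.6 and 30.7 in Ch7, and 16.3 and 18.1 in Ch8. These 4 clones did not overlap one another, and their difference passed edgeR's test (adjusted p = 1.76e-05, largest log2 difference 1.52). The lowest Ch clone was 2.73 times as high as the highest poly(A) clone. Ch clones and preparation cannot be told apart here.

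The ratio of *Apobec1* was 0.571% Cast in G4 (0.101 to 3.17%), with 1 Cast read among 175. It was 12.5% in F5, from 40 reads (5.46 to 26.1%), an interval that crosses the monoallelic limit. C2 was biased to 129 with 34.9% (27.8 to 42.7%). The other poly(A) clones were biallelic, at 42.1% in mC3, 41.1% in mE6, 46.5% in mG2 and 50.1% in mG6. Clone 129 had 3 allele-specific reads and no ratio. All poly(A) clones with a ratio therefore lay between 0.571 and 50.1%, and the Ch clones above them, between 62.5 and 79.6%. As for the level, Ch clones and preparation cannot be told apart for this ratio.

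Within the Ch clones, the 2 libraries gave *Apobec1* ratios of 76.0 and 77.9% in Ch3, 78.7 and 80.7% in Ch5, 64.6 and 71.3% in Ch7, and 64.4 and 60.6% in Ch8. The clones differed (adjusted p = 1.48e-11, edgeR) by up to 17.1 percentage points, against a pooled SD of 2.90 points between libraries. Over 11 clones the SD of the *Apobec1* ratio was 24.9 points, and 1.64% of 8721 autosomal genes had a larger one. When all 16 pairs of libraries for the 4 genes and 4 clones were compared, none differed after adjustment (two-sided Fisher's exact test, Benjamini-Hochberg), as for all but 0.322% of 42611 comparisons. Of these 16, 1 had an unadjusted p under 0.05 (*Apobec1* in Ch7, Fisher's exact test p = 0.0167, adjusted p = 0.338).

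*Apobec1* did not follow the allele of *A2m*. In G4 both genes were expressed from 129. In Ch3 and Ch5, *A2m* leaned to 129 and *Apobec1* to Cast, with *Apobec1* 51.0 and 51.1 percentage points higher. The Cast lean of *Apobec1* was seen in all Ch clones and cannot be told apart from their preparation. In mC3, mE6 and mG6, where *A2m* was monoallelic for Cast, *Apobec1* was biallelic, with differences (*Apobec1* minus *A2m*) of -47.4 to -41.85 points. Ch7 and Ch8 leaned to Cast for both genes. The *A2m* ratios fell into separate clusters, with a gap of 41.0 points between 28.5 and 69.5%, so no correlation with another gene over all clones is given. Within the 6 clones of the upper cluster, Pearson's r of *A2m* with *Apobec1* was -0.15 (exact permutation p = 0.814) and Spearman's rho 0.03 (exact permutation p = 1.00), and leaving out mG2 and Ch8, the 2 clones with *A2m* ratios most distant from the median, gave r = -0.20. In the same 6 clones, r of *A2m* with *Rimklb* was 0.16 (exact permutation p = 0.872) and rho 0.09 (exact permutation p = 0.919), and r = 0.55 after leaving out these 2. Over 11 clones, *Apobec1* and *Rimklb* had r = -0.07 (permutation p = 0.808) and rho = -0.17 (permutation p = 0.614), and leaving out G4 and F5, by the same rule, gave r = -0.24. Adjusted over the 3 pairs, all p-values of r were 0.872 and those of rho 1.00, two-sided. The Ch clones and the poly(A) clones are mixed in these sets, and within the 7 poly(A) clones r of *Apobec1* with *Rimklb* was 0.37 (exact permutation p = 0.4). Tests over 6 clones detect only strong relations. The upper cluster holds no clone in which *A2m* leaned to 129. Its correlations therefore cannot show whether a neighbour follows the allele of *A2m*.

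*Rimklb* was biallelic in 11 of the 12 clones and leaned to Cast in all of them. Its ratio was 53.4 to 63.3% in the astrocytes, 61.3 to 71.3% in the poly(A) NPCs and 56.2 to 61.8% in the Ch clones, from 377 to 2611 allele-specific reads. The exception was mG6, which at 71.3% (67.4 to 74.9%) was biased to Cast. In G4, where *A2m* and *Apobec1* were at 8.87 and 0.571% Cast, *Rimklb* between them was at 56.2% (54.3 to 58.1%). The *Rimklb* ratio did not pass the test between the Ch clones (adjusted p = 0.932, edgeR), with 5.64 points between the lowest and the highest clone. The SD of its ratio over 12 clones was 4.88 points, close to the median of 4.42 for 8616 autosomal genes with a ratio in every clone, but its median of 59.3% was above that of 94.4% of these genes.

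*Rimklb* was the only gene of the 4 that passed the test between astrocytes and poly(A) NPCs, which also differ in clones and library name prefix. It was at 79.8 CPM in clone 129, 65.3 in C2, 122 in G4, 101 in mC3 and 63.6 in mE6, all above the poly(A) NPCs with 49.9 in F5, 41.4 in mG2 and 28.7 in mG6. The log2 difference (astrocytes minus NPCs) was 1.16 ± 0.28 (SE; adjusted p = 0.0194, edgeR), where 13.0% of 18192 genes were called higher in astrocytes and 12.6% lower. Without mG2 or without mG6 the adjusted p was 0.0737 or 0.0828. The levels of the 2 libraries were 44.4 and 41.1 CPM in Ch3, 54.0 and 48.0 in Ch5, 46.0 and 51.4 in Ch7, and 33.9 and 40.7 in Ch8. Ch8 was below the others, with an adjusted p of 0.0495 for the difference between the Ch clones that did not hold when a library of Ch3, Ch7 or Ch8, or the first of Ch5, was left out (adjusted p = 0.0612 to 0.16).

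*Lrp1* was the most highly expressed of the 4 genes and was biallelic in 11 of the 12 clones. The astrocytes had 1075 CPM in clone 129, 1799 in C2, 1601 in G4, 748 in mC3 and 431 in mE6. The poly(A) NPCs had 477 CPM in F5, 725 in mG2 and 1194 in mG6, which overlapped the astrocytes. The log2 difference of 0.56 ± 0.51 (SE) did not pass the test (adjusted p = 0.46, edgeR). The Ch clones were below all poly(A) clones, with 276 and 295 CPM in Ch3, 312 and 305 in Ch5, 383 and 358 in Ch7, and 256 and 231.5 in Ch8. Between them *Lrp1* differed (adjusted p = 0.00986, edgeR), except when the first library of Ch7 was left out (adjusted p = 0.0935). For the difference from the poly(A) clones, Ch clones and preparation cannot be told apart. Per kilobase of its longest protein-coding transcript in GENCODE vM1, the level of *Lrp1* had a median of 40.4 CPM over the 12 clones, against 11.1 for *Rimklb*, 1.96 for *A2m* and 1.89 for *Apobec1*. These medians mix the 2 preparations, and the order differed in the Ch clones alone. There the medians were 19.99 for *Lrp1*, 14.1 for *Apobec1*, 10.04 for *Rimklb* and 2.42 for *A2m*. *Lrp1* was at 477 to 1799 CPM in the 3 clones with near-silent *A2m*.

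The *Lrp1* ratio was known most precisely, from 5158 to 68221 allele-specific reads. It was 50.9 to 55.7% Cast in the astrocytes, 55.3 to 58.2% in the poly(A) NPCs and 63.7 to 66.5% in the Ch clones, and the intervals of the Ch clones lay above those of all poly(A) clones. Ch8, at 66.5% (65.2 to 67.8%), was just outside the biallelic range. Between the Ch clones the ratio did not pass the test (adjusted p = 0.357, edgeR; 2.81 points between the lowest and the highest). The higher ratio went with the ribosomal RNA-depleted preparation, which cannot be told apart from the Ch clones.

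*A2m* and *Apobec1* did not pass the test between astrocytes and poly(A) NPCs. For *A2m* the mean was 3.61 ± 3.91 CPM (SD, n = 5) in the astrocytes and 14.1 ± 12.4 (n = 3) in the NPCs, and the log2 difference was -1.91 ± 1.78 (SE; adjusted p = 0.468, edgeR). It was -0.16 with sex as a covariate. The mean of *Apobec1* was 2.29 ± 1.26 and 4.09 ± 3.07 CPM, with a log2 difference of -0.76 ± 1.03 (SE; adjusted p = 0.628, edgeR) that became 0.015 with sex as a covariate. In both cell types, clones with *A2m* near 0 and clones with *A2m* from a dominant Cast allele were found.

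The allelic imbalance was seen in few of the genes around *A2m*. RefSeq lists 50 genes and pseudogenes with any part within 1 Mb of *A2m*, of which 27 were matched to the counts by symbol and 14 had a ratio in at least 1 clone. Of the 10 genes with a ratio in all 12 clones, 9 were biallelic in every clone, and *Rimklb* was the other. The share of all genes that are biallelic in every clone was not counted, so the window is not shown to differ from other regions. Over 8616 autosomal genes with a ratio in every clone, the median SD of the ratio was 4.42 points. *M6pr*, a sorting receptor for lysosomal enzymes, ranged from 41.8 to 50.8% Cast and *Phc1*, a Polycomb protein gene, from 49.5 to 54.4%. On the other side, *Bid*, a pro-apoptotic BCL2 family gene, ranged from 42.0 to 57.3%, *Mical3* from 41.3 to 51.7% and *Pex26*, a peroxisome biogenesis gene, from 39.7 to 58.4%. *Iqsec3*, with 225 reads in all libraries together, had a ratio only in mG2, of 41.7%. *Mfap5* had a ratio in 3 clones, which ranged from 37.8 to 75.0%, and 2 of them were biallelic. Of the 12 genes of the window tested between the Ch clones for their ratio, 2 passed, *A2m* and *Apobec1*, where 8.79% of all genes did. Of 13 tested for their level 5 passed, where 16.6% of all genes did: these 2, *Rimklb*, *Mical3* and *Slc25a18*. The stem cell genes *Dppa3* and *Gdf3*, just beyond *Apobec1*, had 6 and 29 reads in all libraries together.

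**Figure D4:**
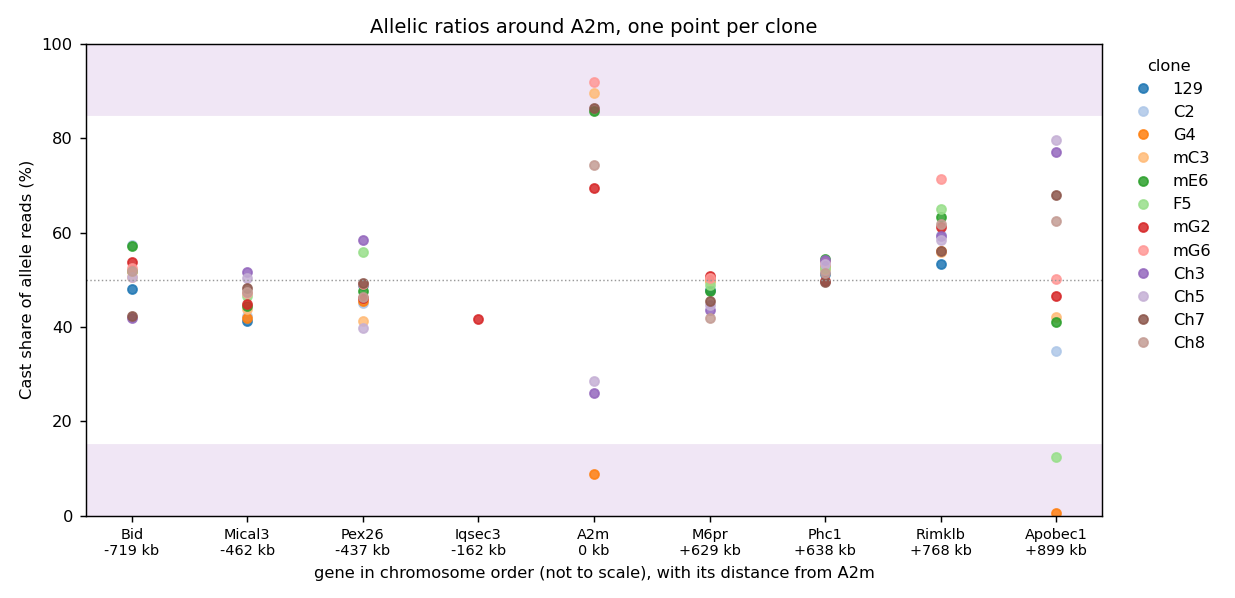
Percentage of Cast among allele-specific reads of A2m and the 8 neighbours named by the study, in chromosome order with the distance from A2m in kb, 1 point per clone with at least 20 allele-specific reads; shaded bands mark monoallelic ratios. A2m and Apobec1 spread over most of the axis, while Bid, Mical3, Pex26, M6pr and Phc1 lie between 39.7 and 58.4% in all 12 clones.

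Of these 8 neighbours, 2 rose in astrocytes against poly(A) NPCs, 0 fell and 6 did not pass (13.0% of all genes rose and 12.6% fell). They were *Rimklb* and *Pex26*, at 10.6 ± 1.69 CPM (SD, n = 5) against 6.33 ± 0.994 (n = 3), with a log2 difference of 0.79 (adjusted p = 0.0419, edgeR). Of the 16 genes of the window tested, 3 rose, the other being *Mfap5*, a microfibril gene at 0.476 against 0.0264 CPM (adjusted p = 0.0139, edgeR), and 0 fell.

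Relatives of *A2m* ranged from 0 reads over all libraries for *Mug2* to 20671 for *Cd109*. Of the 9 thioester family genes, 5 were tested and 1 rose in astrocytes, where 13.0% of all genes tested rose. This was *C3*, the central complement component, at 11.5 ± 7.29 against 0.555 ± 0.190 CPM (log2 difference 4.42, adjusted p = 0.00591, edgeR). The alpha-macroglobulin genes *Pzp*, *Mug1* and *Mug2* had 10, 3 and 0 reads over all 16 libraries. *Cd109*, a membrane-bound relative, was at 27.3 ± 19.1 against 15.8 ± 12.7 CPM and did not pass (adjusted p = 0.445, edgeR). The family's median log2 difference was 0.78, against 0.08 over all genes tested.

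Among 13 LDL receptor family genes, their chaperone included, 3 rose in astrocytes, 0 fell and 10 did not pass, against 13.0% of all genes that rose and 12.6% that fell. The median log2 difference of the list was 0.65, and 0.08 over all genes tested. *Lrpap1*, the chaperone that keeps ligands off LRP1 during its synthesis, was at 208 ± 43.7 against 103 ± 26.1 CPM (log2 difference 1.06, adjusted p = 0.0191, edgeR). The other risers were *Lrp10* (log2 difference 0.83, adjusted p = 0.00472, edgeR) and the Wnt co-receptor gene *Lrp5* (1.39, adjusted p = 0.0196, edgeR). Of 15 ligands and partners, 2 rose, 1 fell and 12 did not pass, a share of risers close to the 13.0% of all genes (12.6% fell). *App*, the amyloid precursor, was at 1916 ± 439 against 582 ± 299 CPM (log2 difference 1.77, adjusted p = 0.0149, edgeR). The gelatinase gene *Mmp9* rose from 0.0420 to 0.744 CPM (log2 difference 4.12, adjusted p = 0.0125, edgeR). The tissue plasminogen activator gene *Plat* fell from 343 ± 75.0 to 107 ± 52.4 CPM (-1.64, adjusted p = 0.011, edgeR). *Mmp2* was at 15.5 ± 25.0 against 276 ± 73.8 CPM and missed the threshold (adjusted p = 0.0545, edgeR).

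The IL-6 family, acting through STAT3, is known as an inducer of the rat *A2m* gene in liver. Of its 10 listed genes, 3 rose, 1 fell and 6 did not pass, where 13.0% of all genes rose and 12.6% fell. The shared receptor gene *Il6st* was at 492.8 ± 297 against 139 ± 36.5 CPM (log2 difference 1.88, adjusted p = 0.0256, edgeR), the kinase gene *Jak1* had a log2 difference of 1.14 (adjusted p = 0.0271, edgeR) and the receptor gene *Lifr* one of 0.55 (adjusted p = 0.0481, edgeR). *Cebpd*, a transcription factor gene of the acute phase response, fell from 21.3 ± 2.87 to 8.04 ± 1.68 CPM (-1.35, adjusted p = 0.0081, edgeR). *Stat3* was at 234.1 ± 64.5 against 151 ± 27.5 CPM (adjusted p = 0.0688, edgeR).

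Of the 7 genes of the AID/APOBEC deaminases and their cofactors, 4 were tested between astrocytes and poly(A) NPCs. Of these, 0 passed (0 with DESeq2 and 0 at an unadjusted p under 0.05), where 13.0% of all genes rose and 12.6% fell. *A1cf*, which encodes a cofactor of Apobec1, had 0 reads, and *Rbm47*, which encodes another, was at 0.432 ± 0.517 against 0.0644 ± 0.0544 CPM. *Apobec3*, an antiviral deaminase gene, was at 1.61 ± 2.42 against 5.62 ± 8.21 CPM. Between the Ch clones, 2 genes of the list were tested, *Apobec1* and *Apobec3*, and both passed for level and for ratio. For *Apobec3* the adjusted p was 0.0002245 for level and 0.0004769 for ratio (edgeR), where 16.6% and 8.79% of all genes passed. Of the 7 NAAG genes, 6 were tested between astrocytes and poly(A) NPCs. Of these, 2 rose, 2 fell and 2 did not pass, beside 13.0% of all genes that rose and 12.6% that fell. Beside *Rimklb*, *Aspa*, which encodes the enzyme that breaks down N-acetylaspartate, rose from 1.38 to 7.34 CPM (log2 difference 2.47, adjusted p = 0.0323, edgeR). *Nat8l*, whose enzyme makes N-acetylaspartate, fell from 25.3 to 9.13 CPM (-1.42, adjusted p = 0.037, edgeR). *Grm3*, which encodes the receptor of NAAG, fell from 31.1 to 4.35 CPM (-2.77, adjusted p = 0.0201, edgeR). The paralog *Rimkla* was at 1.07 ± 0.423 against 1.02 ± 0.431 CPM.

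The genes whose levels were most like those of each gene were ranked by Pearson's r of log2(CPM + 1) over the 8 poly(A) libraries among 15791 genes, as a description. They were *Cxcl14* (0.97), Gm14387, *Igsf10*, *Rpe65* and *Casq2* (0.94) for *A2m* and *Naaa* (0.97), *Nox4*, *Ncam2*, *Celf5* and *Lonrf3* (0.94) for *Apobec1*. For *Rimklb* they were Gm15544 (0.98), *Lemd1*, 4930563E22Rik, *Dzip1l* and *Slc44a5* (0.95), and for *Lrp1* *Airn* (0.99), *Mef2d*, AC170864.1, *Heatr5b* and *Cdh6* (0.97). Some of the genes so ranked lay near 0 in all 8 libraries, so that their r rests on few reads. *Rpe65* reached at most 0.22 CPM, Gm15544 0.20 and AC170864.1 0.33. Among the 4 genes, *A2m* and *Apobec1* were the most alike (r = 0.83), while *A2m* had r = -0.43 with *Rimklb* and -0.21 with *Lrp1*. These libraries share their preparation, and sex and cell type vary over them.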

How the data were processed

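RNA-seq of 16 libraries was used, from astrocytes of 5 clones and NPCs of 7 other clones. The deposited counts (Cast, 129 and all reads per gene) were made by the authors with TopHat2 2.1.0, Bowtie2 and featureCounts 1.5.1 on GRCm38 masked at strain polymorphisms, counting by strand, and are not normalized. The authors also deposited the Cast fraction, given from 10 allele-specific reads, which was not used. Reads on near-identical copies were not separated further. Symbols were found for 32722 of 50600 identifiers.

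Levels were compared with edgeR 4.0.16 (quasi-likelihood, TMM, expression filter, Benjamini-Hochberg adjusted p under 0.05 over all genes), between astrocytes and poly(A) NPCs, between female and male clones, and between Ch clones. The last was also done for allelic ratios, with a term per library. SE is the log2 difference over the root of F. The 4 genes and all lists were chosen with earlier results of these data known. A gene of the list of LRP1 ligands and partners is not reported here and was left out of its counts. List genes named are up to 5 that passed with the smallest p, then those with most reads, beside others named after their values were seen. Alternatives were DESeq2 1.42.0, no filter, sex as a covariate, A234 libraries only, TMM levels, other read minimums and limits, and leaving out each library. The sex comparison and the A2m cluster rule were added after the data were seen. On simulated data, the astrocyte comparison recovered 1 of 100 genes changed by a log2 of 1 and 29 of 100 changed by a log2 of 2. That of Ch levels recovered 63 of 100 and 96 of 100. A gene that did not pass between astrocytes and NPCs may therefore still differ. R 4.3.3, Python 3.11.15, scipy 1.17.1 and matplotlib 3.10.9 were used.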

Additional observations from a re-analysis of the deposited data

Results flagged for a closer look

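Among the 7 sets of astrocyte values examined (levels of the 4 genes and ratios with at least 4 clones), 1 held a value far from the rest. Apobec1 in the astrocytes of clone 129 was at 0.0567 CPM (5 reads), below the other 4 clones at 2.60 to 3.17 CPM, with a gap that took 0.819 of the whole range. Chance marks about 1 in 20 such sets. The same library had A2m at 0.0454 CPM, while Rimklb (79.8 CPM) and Lrp1 (1075 CPM) lay inside the range of the other astrocytes, and the cause was not tested.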

How the results depend on the processing

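Under the alternatives run, the calls of A2m and Apobec1 between the Ch clones (level and ratio) were the same, as was the missing call of the Rimklb and Lrp1 ratios. Rimklb between astrocytes and NPCs had log2 differences of 0.93 to 1.36 without single clones and lost its call without mG2 or mG6. Among the Ch clones, the largest log2 difference without single libraries was 0.33 to 0.60 for Rimklb and 0.54 to 0.68 for Lrp1. The log2 difference between astrocytes and NPCs changed sign for Apobec1 with sex as a covariate (0.015) and for Lrp1 with the A234 astrocytes only (-0.12), neither called. The female minus male difference of A2m was -7.80 to -3.14 without single clones.

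The number of genes called between astrocytes and NPCs was 4644, and 2269 to 4849 without single clones, lowest without mG2. Between female and male clones it was 18, with 407 by DESeq2, 40 without a filter and 8 to 29 without single clones. Between Ch clones it was 2834 for levels, 4361 without a filter and 1509 to 3244 without single libraries, and 1004 for ratios. A2m was monoallelic in 5 clones, and in 2 at limits of 10 and 90%. Apobec1 was monoallelic in 2 clones, and in 1 at those limits or with at least 50 reads. The correlation of Apobec1 with Rimklb changed sign in the poly(A) clones (0.37).

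Replicate numbers did not pair the Ch libraries (correlations of their differences -0.18 to 0.279). With the replicate number as a block, 3391 genes were called for level and 1005 for ratio. Depth limits the ratios of A2m in clones 129, C2 and F5, which had 4, 0 and 8 allele-specific reads. The correlations of A2m in poly(A) clones alone were not run, since under 6 clones remained.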
